A study of Mus musculus with 6 samples.

Results

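Each of 6 subcutaneous tumours was split by species into the human cells that were injected and the mouse cells of the host, and the expression of same-named genes was compared between them within the same tumour. A human and a mouse gene formed a pair when their symbols were equal in capitals, taking the row with the highest mean where a symbol had several, and every pair is written here in capitals. Of 16714 such pairs, 13589 had a mean estimated count of at least 10 in either table and were kept. Of these, 11167 reached that count in both tables, 1672 through the human table only and 750 through the mouse table only. The tumours grew under the skin of male nude mice, which are athymic and make few mature T cells, from injected DU145 cells, an established prostate carcinoma line. The 3 control tumours are the libraries NC10, NC4 and NC9. The 3 Zelnorm tumours, MBZ_254, MBZ_257 and MBZ_259, whose code MBZ the labels do not explain, came from mice dosed by mouth every day with tegaserod, an agonist of a serotonin receptor, at a dose not given in the sources used here. All tumours share the line, the strain and the site, and treatment was ignored except where it is named. The labels do not say that the samples came from separate animals, so p-values measure the spread between these samples, which may be technical.

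A tumour of this kind holds 2 tissues whose transcripts differ in sequence. The injected line supplies the cancer cells, while the host supplies vessels, fibroblasts, matrix, macrophages and other leukocytes. Signals pass between them when one side makes a ligand and the other its receptor. Bulk RNA of a single-species tumour mixes both sides, and in a xenograft the species of a transcript names its source as far as reads can be told apart. Values are CPM, the usual per-library scaling of counts, here scaled to the named genes of one table in one library, so that a ratio compares the share of a transcript in human RNA with its share in mouse RNA. CPM is not corrected for gene length, and the human and mouse transcripts of a pair may differ in length. Fewer cells of a type and less RNA per cell cannot be told apart in bulk tissue. Levels are given as the median of the 6 tumours with the lowest and the highest in brackets. A positive log2 ratio means higher in the human table. The SE after ± was worked back from the test, as the absolute log2 ratio over the square root of its F statistic. The human table held 24495364 to 39102850 named counts per library and the mouse side 5798742 to 9185279, which was 15.1% to 23.4% of the total.

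The labelled identity of the cancer cells was set against lineage genes, in lists chosen after their values were seen. Of 12 genes typical of lung alveolar and airway epithelium, 7 had a mean above 10 CPM in the human table, and their summed level was 1518 to 3245 CPM. SFTPB, a surfactant protein, stood at 1506 CPM (726 to 2150). SLC34A2, a phosphate transporter of alveolar cells, stood at 488 CPM (358 to 722) and NAPSA, an aspartic protease of the same cells, at 288 CPM (238 to 389.8). NKX2-1, the transcription factor that directs lung and thyroid development, was at 102 CPM (91.95 to 113) in the human table of every tumour. Surfactant protein C (SFTPC) was near 0, at 0.0843 CPM (0 to 0.1504). Of 12 prostate genes, 3 exceeded 10 CPM, STEAP2 and TMPRSS2 among them, and the sum was 76.8 to 127 CPM. HOXB13 and FOLH1 had no count. The lung genes go against the label in all 6 tumours. The source of these transcripts was not tested, and the human side is called below the human cells labelled DU145, or tumour cells.

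Reads shared between the species set a limit on every ratio. Over 85 genes of host cell lists with at least 100 counts on average in the mouse table, the human table held a median of 9.46% of the mouse count, with an upper quartile of 22.5% and a maximum of 233%. Over 40 epithelial genes the mouse table held a median of 1.21% of the human count, with an upper quartile of 6.58% and a maximum of 27.6%. Each share includes any expression of the gene by the cells of the other side, which was not separated from shared reads. In the host lists the largest shares were those of CD37 at 233%, GPNMB at 198% and CYBA at 170%. Shares are called shared reads below with that limit. No source used here says how reads were divided between the tables. Where the lower table of a pair held under 10% of the count of the other, as in 4785 of the 13589 pairs, the lower level is therefore written as a bound, "or less".

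A second measure of sharing used the tumours' own differences in host content, as the question whether a pair kept its ratio of CPM or its ratio of counts from tumour to tumour. The log2 ratio of library totals varied with an SD of 0.27 over the 6 tumours. In RPS27, a ribosomal protein, the mouse count was 64.9% to 68.4% of the human count in every tumour, and the log2 count ratio had an SD of 0.03 while the log2 CPM ratio had 0.26. HNRNPA2B1, an RNA-binding protein, behaved alike, with mouse counts at 68.1% to 72.2% of human counts. ACTB, cytoplasmic actin, held 55.3% to 59.8%. NKX2-1, the lung factor named above, had 143 CPM (123 to 231) in the mouse table, with mouse counts at 33.8% to 38.9% of human counts. In contrast, the mouse count of PGD, an enzyme of the pentose phosphate pathway, ranged from 4.92% to 8.23% of the human count, and its log2 CPM ratio had an SD of only 0.03.

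Among 7331 pairs with a mean of at least 100 counts in both tables, 566 (7.72%) kept the count ratio, meaning that its SD was under 0.5 times that of the CPM ratio, and 2408 (32.8%) kept the CPM ratio by the converse rule. These rules were chosen after the data were seen, and the factor after a looser one, which asked only for a smaller SD and gave 1488 pairs (20.3%). A steady count ratio was found in 189 of 1206 deep pairs called higher in host cells (15.7%), 43 of 1443 called higher in tumour cells (2.98%) and 334 of 4682 uncalled pairs (7.13%). The part that shared reads have in these calls was not tested, and the number of host calls in such pairs is given below for the lists where it is largest.

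**Figure D1:**
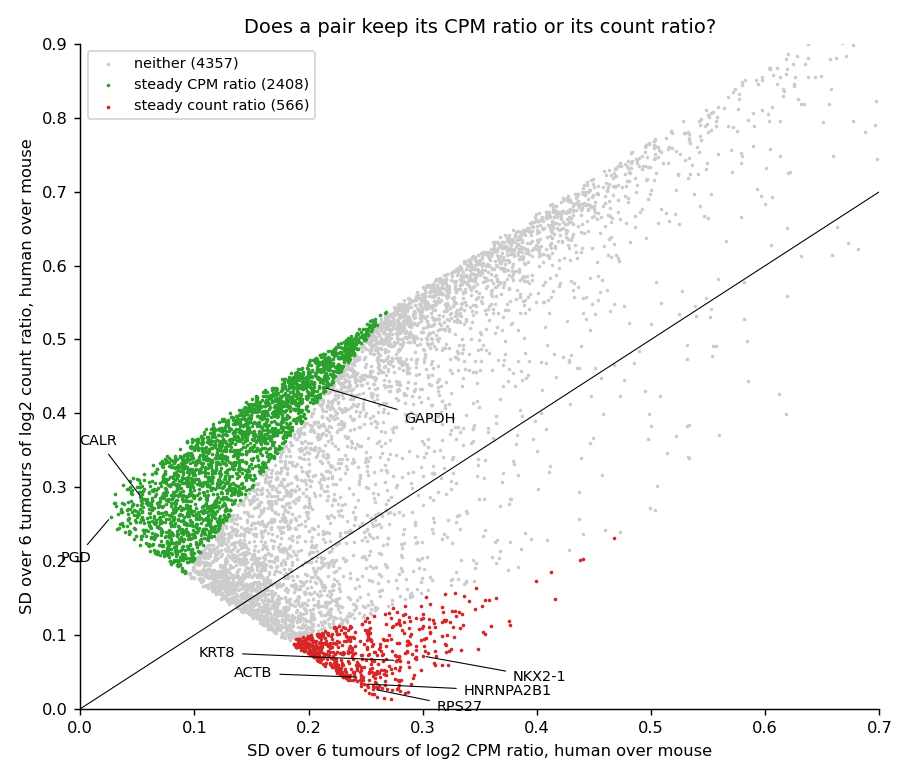
SD over the 6 tumours of the log2 CPM ratio (horizontal axis) and of the log2 count ratio (vertical axis) for 7331 gene pairs with at least 100 counts on average in both tables. The 566 red pairs kept their count ratio, the 2408 green pairs kept their CPM ratio, and the line marks equal SDs; pairs beyond 0.7 or 0.9 are outside the axes.

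The summed muscle and epithelial lists were read in the same way. Skeletal muscle genes summed to 3176.6 to 9249 CPM in the mouse table of NC4, NC9 and MBZ_259 and to 87.8 to 584 CPM in the other 3 tumours. In the human table they summed to 177 to 452 CPM in the first 3 and 28.1 to 52.9 CPM in the others. The human count was 19.9% to 23.7% of the mouse count in the muscle-rich tumours, 38.0% in NC10, 103% in MBZ_257 and 115% in MBZ_254, and none of the 14 muscle pairs deep enough (0 of 14) kept a steady count ratio. Epithelial markers summed to mouse counts at 4.49% to 5.11% of human counts in all 6 tumours.

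**Figure D2:**
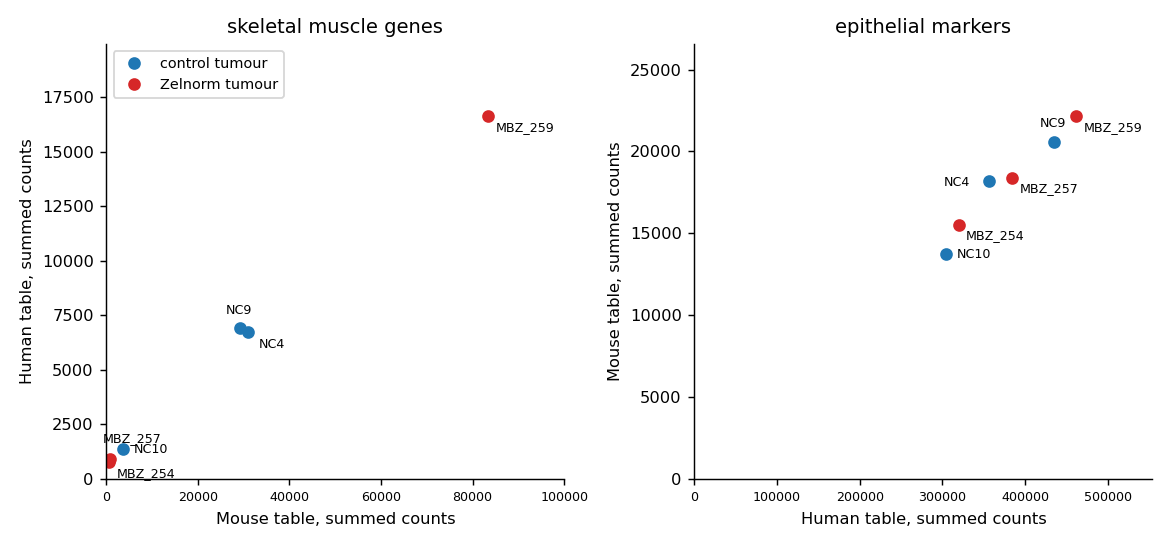
Summed counts of the skeletal muscle list (left, mouse table on the horizontal axis) and of the epithelial marker list (right, human table on the horizontal axis) in each of the 6 tumours, blue for control and red for Zelnorm. The human muscle count follows the mouse count, from 752 counts in MBZ_254 to 16623 in MBZ_259, and the mouse epithelial count follows the human count.

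Across all kept pairs, 4766 (35.1%) were higher in tumour cells and 2821 (20.8%) in host cells (55.8% in either direction), at an adjusted p under 0.05 (Benjamini-Hochberg over all 13589 pairs, edgeR's quasi-likelihood test with the tumour as a block) and a ratio of at least 2. In 49.5% of pairs the human CPM was above the mouse CPM in all 6 tumours, and in 32.8% below it. The median log2 ratio was 0.36, and scaling by edgeR's TMM factors moved it to 0.09, so that lists are read against the median of all pairs. TMM scaling gave 4084 and 3407 pairs, and DESeq2 4053 and 3425. Among the 11167 pairs with at least 10 counts on average in both tables, 3350 and 2053 were called. A pair kept through 1 table only had to have the higher count there, though not always the higher CPM. List counts and medians are therefore given as descriptions. For many lists where they differ, those over members that reached the minimum in both tables stand beside them. List counts are to be read against the shares over all pairs.

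Among the 12 largest ratios towards the tumour cells were several secreted and surface products of glandular epithelium. MUC5B, a gel-forming airway mucin, had 481 CPM (361 to 575) in the human table and no count in any mouse column. Against the floor of 3 counts over the 6 mouse columns it was at least 7019-fold higher. LGSN, a lens protein related to glutamine synthetase, had 348 CPM (288 to 382) and CYP24A1, the enzyme that breaks down active vitamin D, 327 CPM (285 to 396), both with no mouse count. SFTPB had 1 mouse count in all, and its log2 ratio of 15.62 rests on that count. BPIFA1, a secreted airway defence protein, had 152 CPM (79.6 to 316) and varied more than the others. CEACAM5 and MUC16, the antigens CEA and CA-125, had 136 CPM (82.96 to 148) and 87.9 CPM (51.7 to 106). SPINK1, a trypsin inhibitor, and DSG2, a desmosomal cadherin, had 51.9 CPM (43.9 to 62.7) and 479.8 CPM (384 to 523). The other 3 of the 12 largest were CALCOCO2, an autophagy receptor, GNGT1, a G protein subunit, and the histone gene HIST1H4K, whose near-identical copies make its count uncertain.

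Epithelial markers, a list of 45 genes, followed the same direction, with 36 of 43 kept pairs higher in the human table and 2 higher in the mouse table, with a median log2 ratio of 4.23. Of its 30 members with at least 10 counts in both tables, 24 were higher in tumour cells and 1 in host cells, with a median of 2.63. With the median or upper quartile of shared reads subtracted, the list's median was 6.74 or 12.76. The shares taken from the mouse table were those of this list's own genes, so this rise was set by the choice of share. EPCAM, an epithelial adhesion protein, had 399 CPM (364 to 434) in the human and 0.329 CPM or less (0 to 0.690) in the mouse table. CDH1, E-cadherin, had 430.2 CPM (378 to 503) in the human and 1.998 CPM or less (0.978 to 5.22) in the mouse table and MUC1, a membrane mucin, 490.2 CPM (335 to 717) in the human and 0.536 CPM or less (0.435 to 1.31) in the mouse table. Keratins of simple epithelium were higher in tumour cells. KRT18 had 1340 CPM (1024 to 1456) in the human and 62.6 CPM or less (42.04 to 94.3) in the mouse table, and KRT7 had 936 CPM (833 to 1046) in the human and 16.8 CPM or less (10.98 to 25.5) in the mouse table. KRT8 differed by only 1.19 ± 0.10 (SE) in log2 ratio, with 849 CPM (757 to 1268) in the mouse table at a steady 9.95% to 11.4% of the human count. DSP, desmoplakin, had a log2 ratio of 0.91 ± 0.10 (SE) and was not called, again with a steady count ratio. The basal keratins KRT14 and KRT5 were the members higher in the mouse table, with 19 CPM (14.5 to 24.8) in the mouse and 0.541 CPM (0.0752 to 1.35) in the human table for KRT14 and 1.97 CPM (0.937 to 6.38) in the mouse and 0.135 CPM (0.0376 to 0.204) in the human table for KRT5.

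The host side was led by macrophage genes. The 3 chains of complement C1q, which macrophages make, had no human count in any tumour. C1QA had 547 CPM (437 to 632) in the mouse table, C1QC 472 CPM (386 to 514) and C1QB 422 CPM (331 to 462), at least 33622-fold, 28376-fold and 25404-fold above the floor of 3 counts over the human columns. In mouse the 3 genes are neighbours on chromosome 4 (GRCm38), between 136880129 and 136898803. The macrophage list had 0 of 22 kept pairs higher in the human table and 22 higher in the mouse table, with a median log2 ratio of -9.04. Of its 9 members with at least 10 counts in both tables, 0 were higher in tumour cells and 9 in host cells, with a median of -5.90. APOE, which carries lipid out of macrophages, had 4704 CPM (3664 to 6222) in the mouse and 12.3 CPM or less (6.53 to 14.6) in the human table. CSF1R, the receptor that macrophages need to survive, had 476 CPM (425 to 599) in the mouse and 8.65 CPM or less (5.71 to 10.5) in the human table. MPEG1, a pore-forming protein of phagocytes, had 782 CPM (645 to 999) in the mouse and 0.0392 CPM or less (0 to 0.0920) in the human table, and TYROBP, a signalling adaptor, and MSR1, a scavenger receptor, had no human count. CCL8, a monocyte chemokine, had 209 CPM (79.7 to 385), a range of several fold between tumours.

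Lists of other leukocytes varied. The general leukocyte list had 0 of 20 kept pairs higher in the human table and 19 higher in the mouse table, with a median log2 ratio of -5.11, led by PTPRC, CD45, with 195 CPM (129 to 248) in the mouse and 0.816 CPM or less (0.552 to 1.23) in the human table. Of the NK and T cell list, 15 of 20 were kept and 14 called for the host, or 3 of 3 with 10 counts in both tables. The summed mouse level of this list was 44.0 to 125 CPM. Mean mouse levels were 33.8 CPM for CD4, 7.84 CPM for IL2RB and 3.88 CPM for KLRK1. LCK, a T and NK cell kinase, had 2.80 CPM (1.38 to 7.76). The leukocyte list had 3 of the 19 host calls in pairs of steady count ratio. Of its 17 members with at least 10 counts in both tables, 0 were higher in tumour cells and 16 in host cells, with a median of -4.99. Dendritic cell genes had 7 of 10 higher in host cells and 1 in tumour cells, and B and plasma cell genes 6 and 0 of 8. With 10 counts in both tables these were 3 and 1 of 6 and 2 and 0 of 2. Of the neutrophil list 6 of 11 were higher in host cells and 2 were not called. Of its 5 members with at least 10 counts in both tables, 2 were higher in tumour cells and 2 in host cells, with a median of -0.20, and with a minimum of 50 counts in either table the list's median was 1.87. The 3 higher in tumour cells were S100A9, TREM1 and LCN2, genes that epithelial tumours can also express. S100A9 had 73.3 CPM (67.1 to 194) in the human and 4.94 CPM or less (3.10 to 10.1) in the mouse table and LCN2 39.8 CPM (32.7 to 51.5) in the human and 1.48 CPM or less (1.21 to 3.54) in the mouse table. Of the mast cell list 4 of 8 were higher in host cells and 2 in tumour cells. Of its 3 members with at least 10 counts in both tables, 1 was higher in tumour cells and 0 in host cells, with a median of 0.89. KIT, the stem cell factor receptor, was higher in tumour cells, with 160.3 CPM (117 to 185) in the human and 33.6 CPM or less (21.4 to 54.1) in the mouse table, while the mast cell protease CMA1 had 7.75 CPM (0.862 to 22.7) and no human count.

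Vascular and connective tissue genes were called for the host almost without exception. The endothelial list had 0 of 25 kept pairs higher in the human table and 25 higher in the mouse table, with a median log2 ratio of -5.83. Of its 17 members with at least 10 counts in both tables, 0 were higher in tumour cells and 17 in host cells, with a median of -5.02. PECAM1, CD31, had 265 CPM (184 to 383) in the mouse and 2.44 CPM or less (1.26 to 3.27) in the human table and CDH5, the cadherin of endothelial junctions, 256 CPM (157 to 353) in the mouse and 0.403 CPM or less (0.327 to 0.614) in the human table. CD93, an endothelial and myeloid surface protein, had 313 CPM (239.7 to 435) and no human count. The fibroblast list had 0 of 28 kept pairs higher in the human table and 27 higher in the mouse table, with a median log2 ratio of -5.37, and 4 of the 27 host calls were in pairs of steady count ratio. Of its 22 members with at least 10 counts in both tables, 0 were higher in tumour cells and 21 in host cells, with a median of -4.63. LUM and DCN, small proteoglycans of connective tissue, had 325 CPM (167 to 398) in the mouse and 0 CPM (0 to 0.0376) in the human table for LUM and 442 CPM (191 to 679.9) in the mouse and 0.0281 CPM or less (0 to 0.0777) in the human table for DCN. Skeletal muscle genes had 0 of 20 kept pairs higher in the human table and 19 higher in the mouse table, with a median log2 ratio of -3.82, but the median within single tumours, on CPM + 0.5, ranged from -4.31 to -0.14, lowest in the muscle-rich tumours named above. With the upper quartile of shared reads subtracted, 14 members of this list were called for the host in place of 19. That share was drawn in part from this list. Of the adipocyte list 14 of 15 were higher in host cells and 0 in tumour cells, with a median log2 ratio of -5.09. With 10 counts in both tables these were 8 and 0 of 9. The list's median within single tumours, on CPM + 0.5, ranged from -4.41 to -1.47. Its mouse sum was 324 CPM (MBZ_257) to 1148 CPM (NC4). FABP4, the fatty acid carrier of fat cells, had 112 CPM (54.3 to 236) and no human count.

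**Figure D3:**
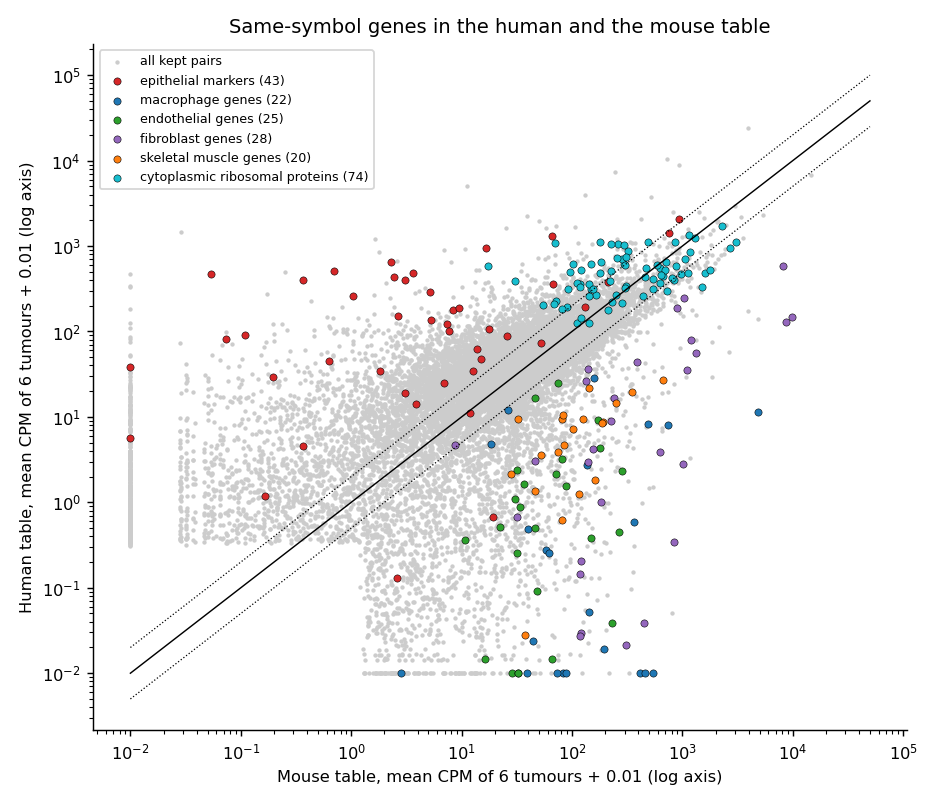
Mean CPM of the 6 tumours in the mouse table (horizontal, log axis) and the human table (vertical, log axis) for all 13589 kept pairs, with 6 gene lists in colour; the solid line marks equality and the dotted lines a ratio of 2. Epithelial markers lie mostly above the lines, macrophage, endothelial, fibroblast and muscle genes below them, and ribosomal proteins mostly along or above them, with 9 below.

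Ligands and receptors were read in turn, each system by which side held which end. Among angiogenic ligands, 5 of 25 were higher in tumour cells and 16 in host cells, and among their receptors 2 and 15 of 25. VEGFA, the main endothelial growth factor, had 754 CPM (551 to 1336) in the human and 116 CPM or less (78.6 to 179) in the mouse table, a log2 ratio of 2.76 ± 0.08 (SE) (adjusted p = 2.05e-10). Its receptors stood on the other side. FLT1 had 139 CPM (126 to 189) in the mouse and 0.326 CPM or less (0.179 to 0.583) in the human table and KDR had 169 CPM (122 to 222) in the mouse and 7.52 CPM (4.08 to 15.8) in the human table. Over members with 10 counts in both tables, the ligands had 5 and 15 of 24 and the receptors 2 and 11 of 21, tumour calls first. The VEGFA ligand had every human column above every mouse column, and both receptors the reverse.

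ADM, a vasodilator peptide, was also higher in tumour cells, with 49.6 CPM (23.6 to 76.8) in the human and 9.60 CPM or less (3.44 to 32.8) in the mouse table, and CALCRL and RAMP2, which form its receptor, were higher in host cells, with 29.1 CPM (18.1 to 40.4) and 25.3 CPM (17.2 to 32.5) in the mouse table. The ADM ranges of the 2 tables overlapped. Ligands of vessel growth and maturation were instead higher in the host. ANGPT2 had 49.1 CPM (24.9 to 92.4) in the mouse and 0.191 CPM or less (0.0920 to 0.218) in the human table, PGF 5.64 CPM (3.28 to 22.4) in the mouse and 0.881 CPM (0.368 to 1.51) in the human table and APLN 33.1 CPM (23.6 to 80.9) in the mouse and 0.577 CPM or less (0.414 to 1.14) in the human table. PDGFA was modestly higher in tumour cells, with 47.9 CPM (33.1 to 87.04) in the human and 24.6 CPM (18.7 to 29.7) in the mouse table, and PDGFB in host cells, with 64.5 CPM (57.4 to 76.98) in the mouse and 7.33 CPM (5.93 to 12.7) in the human table. Both PDGF receptors were higher in the host, PDGFRA with 108 CPM (61.4 to 191) in the mouse and 0.133 CPM or less (0 to 0.286) in the human table and PDGFRB with 318 CPM (238 to 434) in the mouse and 1.61 CPM or less (1.04 to 3.02) in the human table.

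Myeloid growth factors and chemokines divided, with 8 of 26 higher in tumour cells and 17 in host cells, while 15 of 22 receptors were higher in host cells and 2 in tumour cells. Over members with 10 counts in both tables, 3 and 6 of 10 ligands and 2 and 8 of 15 receptors were higher in tumour and in host cells. CSF1, the macrophage growth factor, did not reach a ratio of 2 in either direction, with 79.8 CPM (56.7 to 136) in the mouse and 55.7 CPM (46.7 to 66.2) in the human table and a log2 ratio of -0.61 ± 0.12 (SE). IL34, the other ligand of CSF1R, had 10.1 CPM (6.54 to 18.3) in the mouse and 0.0194 CPM or less (0 to 0.136) in the human table. The chemokines that attract neutrophils were higher in tumour cells. CXCL1 had 10.8 CPM (7.996 to 28.5) in the human and 0.975 CPM or less (0.652 to 1.87) in the mouse table and CXCL5 9.64 CPM (6.35 to 18.6) in the human and 0.390 CPM or less (0.163 to 2.68) in the mouse table. Their receptor CXCR2 had no human count and only 1.39 CPM (0.690 to 2.76) in the mouse table. The monocyte chemokines were higher in host cells. CCL2 had 18.2 CPM (12.2 to 19.7) in the mouse and 0 CPM (0 to 0.0920) in the human table, CCL7 had 14.1 CPM (11.9 to 17.8) and no human count, and their receptor CCR2 had 57.6 CPM (45.7 to 133) in the mouse and 0.197 CPM or less (0.0752 to 0.307) in the human table. CXCL12 and its receptor CXCR4 were both higher in host cells, CXCL12 with 109 CPM (68.8 to 255) in the mouse and 0.476 CPM or less (0.190 to 1.65) in the human table and CXCR4 with 51.1 CPM (43.2 to 77.1) in the mouse and 4.51 CPM (2.25 to 9.52) in the human table.

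In the EGF family the called ligands and the receptors EGFR, ERBB2 and ERBB3 were higher in tumour cells. Of 9 kept ligands 6 were higher in tumour cells and 0 in host cells, or 2 and 0 of 4 with 10 counts in both tables. HBEGF, NRG1 and NRG2 were not called, with log2 ratios of 0.93 ± 0.25 (SE), -0.004 ± 0.18 (SE) and -0.48 ± 0.27 (SE). TGFA had 27.7 CPM (23.6 to 31.5) in the human and 2.15 CPM or less (1.89 to 2.29) in the mouse table and EGF 27.6 CPM (22.2 to 31.2) in the human and 1.19 CPM or less (0.134 to 3.66) in the mouse table. AREG had 6.72 CPM (5.15 to 48.2) and no mouse count, with MBZ_259 far above the other 5 tumours. The receptors EGFR and ERBB3 had 275 CPM (204 to 405) in the human and 72.3 CPM or less (48.1 to 102) in the mouse table and 157 CPM (136 to 184) in the human and 35.02 CPM or less (29.6 to 45.2) in the mouse table. ERBB2 had 436 CPM (358 to 519) in the human and 81.6 CPM or less (73.5 to 93.96) in the mouse table, at a steady 4.26% to 5.19% of the human count. Feedback inhibitors of the same pathway divided. DUSP4, a phosphatase, was higher in tumour cells with 179.8 CPM (95.99 to 231) in the human and 22.2 CPM or less (16.9 to 28.3) in the mouse table, and DUSP6, a related phosphatase, in host cells with 98.9 CPM (87.3 to 111) in the mouse and 28.2 CPM (19.2 to 70.1) in the human table. SPRY1 and SPRY4 were also higher in host cells.

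Among interleukin-6 family ligands, LIF was higher in tumour cells, with 163 CPM (126 to 220.5) in the human and 12.5 CPM or less (9.83 to 19.7) in the mouse table. IL11 and IL6 were also higher in tumour cells, with 6.92 CPM (6.05 to 11.3) in the human and 0.435 CPM or less (0.163 to 0.762) in the mouse table and 5.35 CPM (3.62 to 8.82) in the human and 1.39 CPM or less (1.03 to 3.11) in the mouse table. OSM, which myeloid cells make, was higher in host cells, with 2.89 CPM (0.978 to 5.10) in the mouse and 0.478 CPM (0.272 to 0.706) in the human table. OSMR, its receptor, had 773 CPM (744 to 892) in the human and 64.4 CPM or less (47.3 to 103) in the mouse table, while LIFR and the shared chain IL6ST were not called, with log2 ratios of -0.08 ± 0.14 (SE) and 0.19 ± 0.18 (SE). IL33, an alarmin, had 173 CPM (78.7 to 290.1) in the mouse and 0.0537 CPM or less (0 to 0.122) in the human table, and IL1B, a product of activated macrophages, 41.4 CPM (24.1 to 100.2) in the mouse and 0.117 CPM or less (0 to 0.188) in the human table.

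Other growth factor lists are read beside the 20.8% of all pairs higher in host cells and the 35.1% higher in tumour cells. Of 21 kept ligands of the HGF, GAS6 and IGF list 10 (47.6%) were higher in host cells and 1 (4.76%) in tumour cells. Of 17 receptors 9 (52.9%) were higher in host cells and 6 (35.3%) in tumour cells. With 10 counts in both tables these were 7 and 0 of 16 ligands and 8 and 6 of 16 receptors. GAS6 had 416 CPM (255 to 859) in the mouse and 40.2 CPM (18.8 to 74.1) in the human table and its receptor AXL 332 CPM (307 to 406) in the mouse and 97.5 CPM (64.1 to 131) in the human table. IGF1 had 92.4 CPM (45.4 to 109) in the mouse and 0.122 CPM or less (0 to 0.602) in the human table, and its receptor IGF1R was higher in tumour cells with 199 CPM (192 to 214) in the human and 95.96 CPM (83.3 to 105) in the mouse table. HGF had 7.02 CPM (5.12 to 9.37) in the mouse and 0.229 CPM (0.0920 to 0.460) in the human table, and its receptor MET was not called, with a log2 ratio of 0.93 ± 0.12 (SE). MST1R, the related receptor RON, and its ligand MST1 were both higher in tumour cells, MST1R with 69.8 CPM (58.6 to 72.97) in the human and 9.57 CPM or less (7.36 to 13.6) in the mouse table and MST1 with 11.3 CPM (9.29 to 12.9) in the human and 0 CPM (0 to 0.134) in the mouse table. Of TGF-beta superfamily ligands 11 of 22 were higher in host cells and 2 in tumour cells, and of their receptors 6 and 1 of 15. Among the ligands with 10 counts in both tables, 9 of 20 were higher in host cells and 2 in tumour cells. TGFB3 had 257 CPM (145 to 318) in the mouse and 13.3 CPM (7.15 to 17.3) in the human table and the receptors TGFBR1 and TGFBR2 222 CPM (152 to 274) and 459.6 CPM (307 to 569) in the mouse table. Of WNT, Hedgehog and Notch ligands 13 of 26 (50%) were higher in host cells and 9 (34.6%) in tumour cells. Of their receptors 13 of 30 (43.3%) were higher in host cells and 5 (16.7%) in tumour cells. With 10 counts in both tables these were 11 and 5 of 19 ligands and 13 and 5 of 29 receptors. Among WNT regulators, DKK1, a secreted inhibitor, was among the most one-sided, with 106 CPM (74.5 to 124) in the human and 0.462 CPM or less (0 to 0.776) in the mouse table, and RNF43, a membrane inhibitor, had 77.1 CPM (60.8 to 91.8) in the human and 8.81 CPM or less (5.22 to 13.97) in the mouse table. LGR5, a receptor for R-spondins, had 28.2 CPM (16.7 to 65.6) in the mouse and 0.388 CPM or less (0.332 to 0.980) in the human table.

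Of the immune checkpoint and phagocytosis list, 15 of 23 were higher in host cells and 5 in tumour cells. Of its 12 members with at least 10 counts in both tables, 3 were higher in tumour cells and 6 in host cells, with a median of -1.16. CD274, PD-L1, had 12.2 CPM (8.64 to 30.5) in the mouse and 1.36 CPM (1.27 to 1.69) in the human table. PVR and NECTIN2, ligands of the receptor TIGIT, were higher in tumour cells, PVR with 104 CPM (94.1 to 111) in the human and 18.95 CPM or less (18.3 to 31.5) in the mouse table and NECTIN2 with 52.2 CPM (49.5 to 63.3) in the human and 22.8 CPM (15.7 to 28.1) in the mouse table. CD47, the signal that restrains phagocytosis, had 89.7 CPM (73.4 to 109) in the human and 114 CPM (92.95 to 163) in the mouse table and was not called. SIRPA, its receptor on macrophages, had 267 CPM (246 to 306) in the mouse and 16.2 CPM (13.95 to 18.9) in the human table. VSIR, the checkpoint VISTA, had 167 CPM (131 to 202) in the mouse and 8.43 CPM (7.90 to 9.54) in the human table, and CD276 was not called, with a log2 ratio of -0.12 ± 0.07 (SE).

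**Figure D4:**
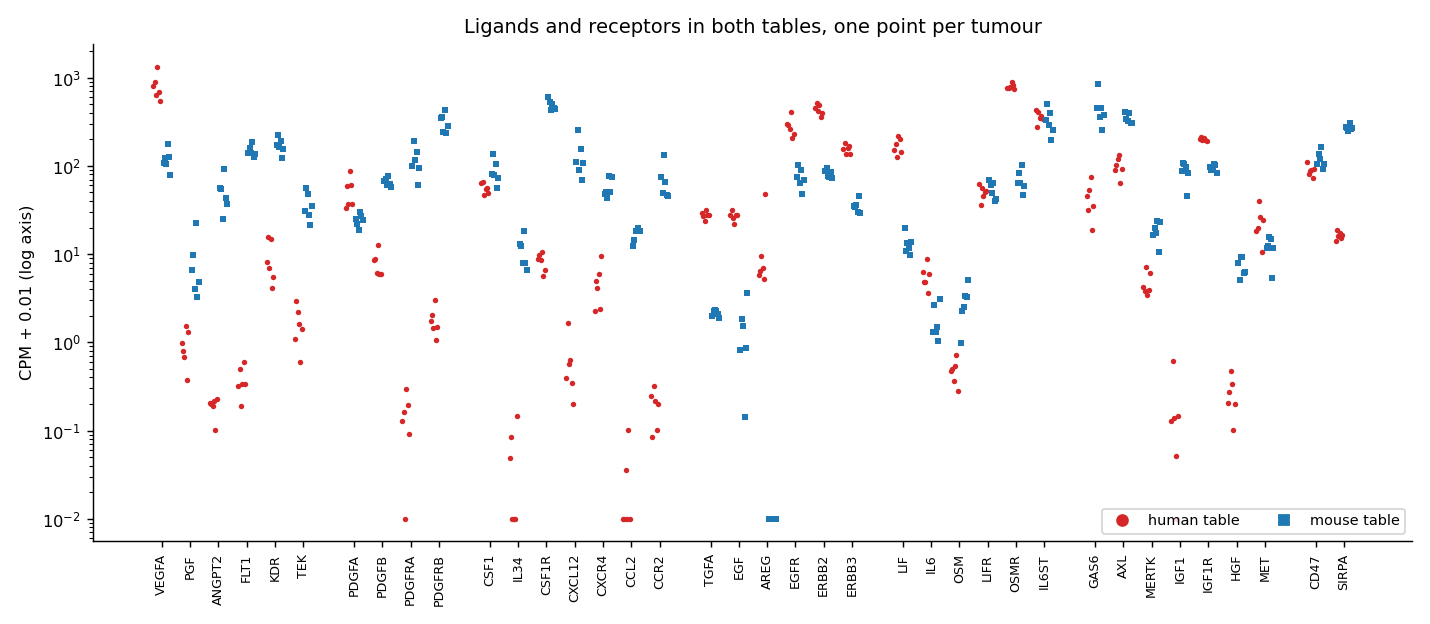
CPM + 0.01 on a log axis of ligands and receptors in the human table (red circles) and the mouse table (blue squares), one point per tumour, so that values of 0 lie at 0.01. VEGFA and the plotted EGF family members (TGFA, EGF, AREG, EGFR, ERBB2 and ERBB3) lie higher in the human table. FLT1, PDGFRB, CSF1R, CCR2 and SIRPA lie higher in the mouse table. The uncalled EGF family ligands HBEGF, NRG1 and NRG2 are not plotted.

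Matrix genes divided by type. Of 27 kept collagens, 20 were higher in host cells and 3 in tumour cells, and of 37 proteoglycans and matricellular genes 32 and 1. With 10 counts in both tables, 17 of 21 collagens were higher in host cells and 0 in tumour cells, and 26 and 1 of 31 proteoglycans and matricellular genes. A steady count ratio was kept by 4 of the 20 host calls among collagens and 4 of the 32 host calls among proteoglycans and matricellular genes. The interstitial collagens were higher in host cells. COL1A2 had 8588 CPM (4234 to 12492) in the mouse and 115 CPM or less (43.5 to 215) in the human table and COL3A1 8913 CPM (3690.1 to 17094) in the mouse and 127 CPM or less (40.6 to 308) in the human table. COL1A1 had 8260.2 CPM (3987 to 11638) in the mouse and 552 CPM (221 to 894) in the human table, and its human counts were a steady 26.4% to 31.2% of the mouse counts. The 3 collagens of the tumour cells were COL17A1, a hemidesmosome collagen, and COL4A3 and COL4A4, minor chains of basement membrane. COL4A3 had 95.4 CPM (72.5 to 149) in the human and 0.718 CPM or less (0.222 to 1.18) in the mouse table and COL4A4 103 CPM (85.2 to 144) in the human and 0.703 CPM or less (0.172 to 2.23) in the mouse table, while the major chain COL4A1 had 1724 CPM (1257 to 2655) in the mouse and 74.7 CPM (61.6 to 105) in the human table.

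Laminins divided by chain, with 10 of 19 of the laminin and basement membrane list higher in tumour cells and 7 in host cells. Of its 17 members with at least 10 counts in both tables, 8 were higher in tumour cells and 7 in host cells, with a median of 0.97. LAMA3 and LAMB3, chains of laminins that anchor epithelium, were higher in tumour cells. LAMB3 had 639.9 CPM (552 to 742) in the human and 2.50 CPM or less (0.333 to 3.59) in the mouse table and LAMA3 186 CPM (141 to 265) in the human and 8.30 CPM or less (7.99 to 12.2) in the mouse table. The vascular and mesenchymal chains LAMA4 and LAMA2 were higher in host cells, LAMA4 with 239 CPM (136 to 351) in the mouse and 4.60 CPM or less (1.32 to 8.57) in the human table and LAMA2 with 44.8 CPM (30.01 to 93.7) in the mouse and 1.36 CPM (0.798 to 2.04) in the human table. Integrins lay mostly on the host side, with 15 of 24 higher in host cells, 4 in tumour cells and a median of -2.45. With 10 counts in both tables these were 12 and 4 of 21. ITGB4, the hemidesmosome integrin, was higher in tumour cells, with 102 CPM (86.02 to 133) in the human and 16.8 CPM or less (15.2 to 20.996) in the mouse table. The leukocyte integrin ITGAM was higher in host cells, with 149 CPM (129.99 to 186) in the mouse and 0.490 CPM or less (0.389 to 0.639) in the human table. ITGB1 and ITGAV were not called, with log2 ratios of 0.36 ± 0.08 (SE) and 0.00 ± 0.08 (SE). Of the matrix cross-linking and collagen processing list, 12 of 21 were higher in host cells and 1 in tumour cells, with a median of -1.14. The 1 tumour call was TGM2, a cross-linking enzyme, with 828 CPM (487 to 1044) in the human and 84.7 CPM or less (54.7 to 122) in the mouse table. Of matrix proteases and inhibitors 28 of 44 were higher in host cells and 5 in tumour cells. MMP14, a membrane collagenase, was higher in host cells, with 984 CPM (763 to 1199.5) in the mouse and 148 CPM (110.2 to 179) in the human table.

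Among cell programmes, those of growth lay on the tumour side. Of the mitosis list, 21 of 30 were higher in tumour cells and 0 in host cells, with a median log2 ratio of 1.40. MKI67, the proliferation antigen Ki-67, had 209.9 CPM (183 to 244) in the human and 70.3 CPM or less (52.3 to 97.5) in the mouse table, and CCNB1, cyclin B1, 106 CPM (86.9 to 127) in the human and 13.4 CPM or less (6.90 to 17.8) in the mouse table. TOP2A and PLK1, also of this list, were not called, with log2 ratios of 0.06 ± 0.07 (SE) and 0.19 ± 0.09 (SE). DNA replication and DNA repair lists had 19 of 33 and 19 of 28 higher in tumour cells and none in host cells (0 and 0), with medians of 1.23 and 1.43. With TMM scaling 1 DNA replication gene was higher in host cells. XRCC6, a subunit of the Ku DNA end-binding complex, had 386 CPM (335 to 429) in the human and 12.996 CPM or less (11.2 to 15.7) in the mouse table.

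Cholesterol synthesis and antioxidant genes were also mostly higher in tumour cells. The cholesterol list had 17 of 24 kept pairs higher in the human table and 0 higher in the mouse table, with a median log2 ratio of 2.13. FDPS and LSS, enzymes of sterol synthesis, had 164 CPM (149 to 191) in the human and 15.9 CPM or less (13.5 to 19.7) in the mouse table and 95.2 CPM (79.9 to 108) in the human and 8.68 CPM or less (6.31 to 9.29) in the mouse table, while HMGCS1, the synthase at the start of the pathway, was not called, at 0.31 ± 0.06 (SE). Targets of the transcription factor NRF2 had 14 of 20 kept pairs higher in the human table and 1 higher in the mouse table, with a median log2 ratio of 2.24. NQO1, a quinone reductase, had 1150.2 CPM (929 to 1462) in the human and 1.44 CPM or less (0.690 to 2.61) in the mouse table, and TXNRD1, thioredoxin reductase, 1722 CPM (1492 to 2062) in the human and 74.02 CPM or less (59.2 to 79.3) in the mouse table. SLC7A11, the cystine transporter, had 157 CPM (109 to 191) in the human and 8.53 CPM or less (5.25 to 13.5) in the mouse table. HMOX1, heme oxygenase, was the NRF2 target higher in host cells, with 96.1 CPM (71.6 to 175) in the mouse and 24.4 CPM (18.9 to 28.2) in the human table.

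All 14 kept mitochondrially encoded genes were higher in the human table, with a median log2 ratio of 3.74. They took 6.26% to 8.39% of named human counts and 0.575% to 1.11% of named mouse counts. MT-CO1, a subunit of cytochrome oxidase, had 24056 CPM (20790 to 26865) in the human and 4043 CPM or less (2536 to 4816) in the mouse table. MT-CO2, another subunit of the same enzyme, had 5287 CPM (4226 to 5970.4) in the human and 10.9 CPM or less (0 to 23.4) in the mouse table, so that ratios differed widely within one organelle transcript set, and this was not tested further. Of the nuclear genes of the respiratory chain, 16 of 33 were higher in tumour cells, with a median of 0.89. With TMM scaling 8 of 33 were, with a median of 0.63, beside 4084 of all 13589 pairs and their median of 0.09. With the upper quartile of shared reads subtracted 21 of 33 were, with a median of 2.11, beside 6322 of all 13589 pairs and their median of 0.97. SDHA, a subunit of succinate dehydrogenase, was not called, at 0.20 ± 0.06 (SE).

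Lysosomal genes lay on the host side, with 17 of 35 higher in host cells, 3 in tumour cells and a median log2 ratio of -0.93. CTSS, a protease of antigen-presenting cells, had 768 CPM (417 to 954) in the mouse and 8.72 CPM or less (4.17 to 9.92) in the human table. CTSB, a broader lysosomal protease, had 1880 CPM (1689 to 2316) in the mouse and 542 CPM (452 to 608) in the human table. PSAP, a precursor of lipid-handling proteins, was not called, at -0.10 ± 0.10 (SE). ASAH1, acid ceramidase, was one of the lysosomal genes higher in tumour cells, with 278 CPM (238 to 368) in the human and 121 CPM (104 to 155) in the mouse table. With TMM scaling 0 lysosomal genes were higher in tumour cells and 19 in host cells. CD74, the MHC class II chaperone, had 1774 CPM (1248 to 2544) in the mouse and 29.5 CPM or less (24.97 to 36.3) in the human table.

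Of 29 interferon response genes, 10 (34.5%) were higher in tumour cells and 9 (31.0%) in host cells, beside 35.1% and 20.8% of all pairs. Their median log2 ratio was -0.19, beside 0.36 over all pairs. OAS3, an RNA sensor, had 252 CPM (213 to 305) in the human and 8.03 CPM or less (5.77 to 11.3) in the mouse table, and MX1, an antiviral GTPase, 96.4 CPM (65.5 to 137) in the human and 11.1 CPM or less (6.88 to 14.3) in the mouse table. BST2, tetherin, and ZBP1, a nucleic acid sensor, were higher in host cells, BST2 with 57.2 CPM (50.9 to 88.9) in the mouse and 7.10 CPM (2.52 to 8.94) in the human table and ZBP1 with 22.4 CPM (17.8 to 35.3) in the mouse and 0.140 CPM or less (0.0376 to 0.384) in the human table. With TMM scaling the split was 7 higher in tumour cells and 11 in host cells.

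Host calls among housekeeping genes are given with the number in pairs of steady count ratio. Ribosomal proteins had 32 of 74 higher in tumour cells and 9 in host cells, with a median log2 ratio of 0.34, and all 9 host calls kept a steady count ratio. With TMM scaling the split was 25 and 12. Of the proteasome list 9 of 30 were higher in host cells and 5 of those 9 kept the count ratio. Of the spliceosome list the numbers were 6 of 29 (20.7%, beside 20.8% of all pairs) and 5 of 6. RPS27 had 2917 CPM (2313 to 4171) in the mouse and 1103 CPM (968 to 1257) in the human table and HNRNPA2B1 2731 CPM (1889.7 to 3762) in the mouse and 935 CPM (800.2 to 1046) in the human table. PSMA6, a proteasome subunit, had 946 CPM (668 to 1424) in the mouse and 418 CPM (386 to 489) in the human table, with mouse counts at 50.9% to 53.8% of human counts. GAPDH, a glycolytic enzyme, kept its CPM ratio instead and was higher in tumour cells, with 2016 CPM (1757 to 2697) in the human and 434 CPM or less (352 to 472) in the mouse table.

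**Figure D5:**
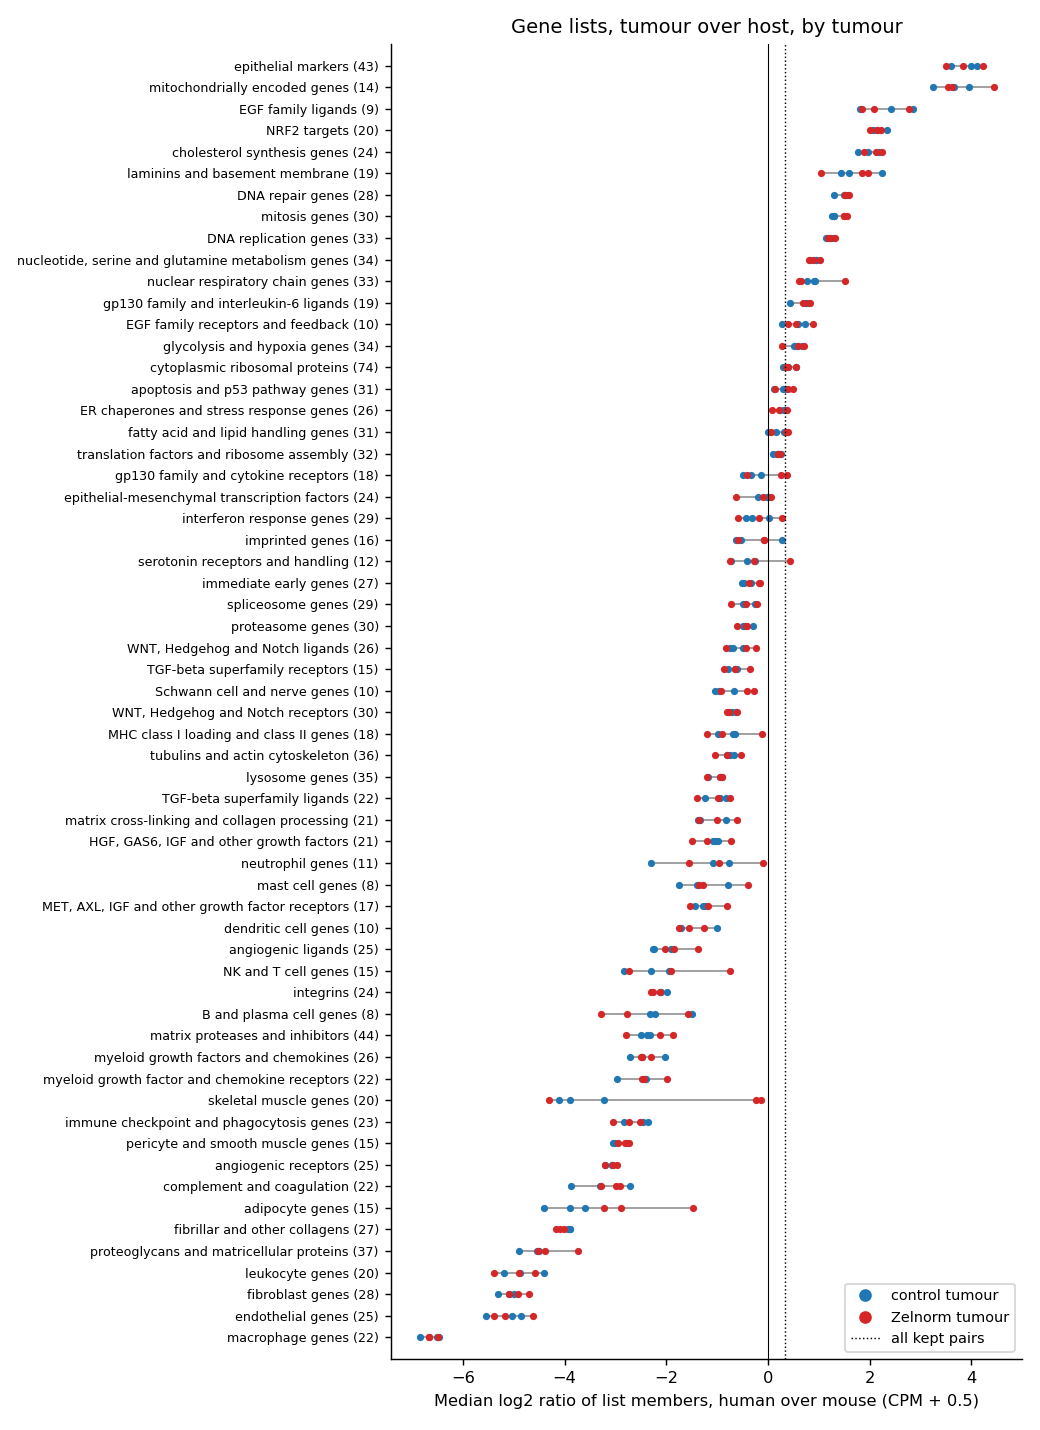
Median log2 ratio of CPM + 0.5, human over mouse, of the kept members of each list with at least 8 kept pairs (number in brackets), one point per tumour, blue for control and red for Zelnorm. The dotted line marks all kept pairs; the muscle list spreads over several log2 units between tumours, and most programme lists over less than 1.

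Among abundant pairs (at least 200 CPM in both tables) those closest to equality were SF3B2, S100A6, GHITM, FTH1, HDLBP and YWHAZ. FTH1, the ferritin heavy chain, had 2979.7 CPM (2592 to 3511) in the human and 2939 CPM (2572 to 3696) in the mouse table. YWHAZ, a 14-3-3 protein, had 928 CPM (889 to 979.97) in the human and 920.3 CPM (842 to 1098) in the mouse table. SF3B2, a splicing factor, had 268 CPM (253 to 337) in the human and 270.2 CPM (238 to 319) in the mouse table, with a log2 ratio of 0.00 ± 0.07 (SE). In each of these the ranges of the 2 tables overlapped.

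Ratios were steady between tumours for most abundant pairs. Over 2829 pairs with at least 50 CPM in both tables, the SD of the log2 ratio over the 6 tumours had a median of 0.16. The largest spread was that of H19, an imprinted RNA, with 132 CPM (33.6 to 261) in the human and 211 CPM (12.9 to 526) in the mouse table. HP, haptoglobin, varied from 16.7 to 314 CPM in the mouse table. FN1, fibronectin, varied from 1704 to 5079 CPM there. The smallest spreads included PGD, PSMB3, a proteasome subunit, and NFX1.

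Whether the gap between the 2 sides differed with Zelnorm was tested by an interaction of species and treatment, with the tumour as a block. No pair of 13589 passed (0%), 238 had an unadjusted p under 0.05, and the smallest adjusted p of edgeR's test was 0.259. That pair was GLB1L2, a galactosidase-like gene, whose log2 ratio was 0.32, -0.44 and -0.03 in NC10, NC4 and NC9 and 2.27, 2.33 and 2.89 in MBZ_254, MBZ_257 and MBZ_259. GLB1L2 was named for the smallest p of 13589 pairs, so the place of all 3 Zelnorm tumours above all 3 controls is a description only. The same holds for the pair named next. FASN, fatty acid synthase, had 1.15, 0.52 and 1.26 in the controls and 1.89, 2.45 and 2.07 in the Zelnorm tumours, with an unadjusted p of 0.000426 and an adjusted p of 1. DESeq2, added after the data were seen, called 2 pairs, and edgeR called 2 when MBZ_259 was left out.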

How the data were processed

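Total RNA libraries of 6 xenograft tumours gave 2 deposited tables, 1 per species, of estimated counts per gene made by the authors, of which 38.0% of human and 27.0% of mouse values are not whole. The builds GRCh38 and GRCm38 and the tools StringTie, HISAT2, edgeR and DESeq2 are named, per the submitters' processing notes; versions, roles and the division of reads between species are not given in the sources used here. Entries with no gene name (0.317% to 0.518% of counts) were left out. Estimated counts were rounded to whole numbers and 12 columns were fitted with edgeR 4.0.16 (R 4.3.3), with the tumour as a block and the total of named genes as library size. Called means an adjusted p under 0.05 (Benjamini-Hochberg) and a ratio of at least 2. DESeq2 1.42.0 and limma-voom (limma 3.58.1) were alternatives, and the fit was tested on simulated data. Mouse coordinates come from GENCODE vM21.

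Named genes were the 12 largest called ratios per direction (at least 50 CPM in the higher table, same direction in all 6 tumours), up to 4 members per list by level, partners of named ligands and receptors, the 6 most equal pairs, the 6 most and 6 least variable, and up to 5 per direction for treatment. Chosen outside that rule, after their values were seen, were ASAH1, BST2, CCNB1, COL17A1, COL4A1, COL4A3, COL4A4, EPCAM, HMGCS1, HMOX1, ITGAV, ITGB4, KRT14, KRT5, LAMA2, LAMA3, LAMA4, LSS, MT-CO2, MUC1, MX1, PLK1, SLC7A11, ZBP1 and the lung and prostate genes. The members and lists were chosen with earlier results of these data known.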

Additional observations from a re-analysis of the deposited data

Results flagged for a closer look

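In 3 of 61 sets examined, 1 tumour lay apart from the other 5 by Dixon's criterion, which chance meets in about 1 set in 20. The median log2 ratio of interleukin-6 family ligands was 0.43 in NC10. The median of DNA repair genes was 1.30 in NC10, and that of nuclear respiratory chain genes was 1.52 in MBZ_257. These medians are of log2 ratios of CPM + 0.5 within a tumour.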

How the results depend on the processing

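Of the called pairs, none had the opposite sign under the other scalings, tests, filters, subtractions or omissions run, except 1 tumour call with the control tumours only, GLB1L2, at a log2 ratio of -0.078. PON1, which was not called over all 6 tumours, was at -1.03 there. The cause was not tested. A ratio of at least 4 left 2662 pairs higher in tumour cells and 1783 in host cells, and no minimum ratio gave 4805 in host cells. The median log2 ratio was 0.089 with TMM factors, 0.087 with DESeq2, 0.46 without mitochondrially encoded genes and 0.25 with a count of 10 in both tables. With shared reads subtracted it was 0.43 at their median share, 0.97 at the upper quartile and 1.54 at 10%; the upper quartile subtraction was chosen after seeing the data. The upper quartiles of these shares, any expression by the cells of the other side included, were 22.5% and 6.58%. Leaving out 1 tumour at a time gave 4681 to 4801 pairs in tumour cells, 2787 to 2817 in host cells, medians of 0.34 to 0.38 and 0 to 2 pairs that differed by treatment, the 2 without MBZ_259. DESeq2, added after seeing the data, also gave 2.

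Without the tumour as a block, 4737 pairs were higher in tumour cells and 2852 in host cells, with a median of 0.35. No paired analysis was possible because the columns carry no replicate number that links control and Zelnorm tumours. The comparison per kilobase was not run, since no human gene lengths were used here. Pairs of low counts, and levels written as a bound, are limited by depth and shared reads.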
